A study of Aloe vera with 7 samples.

Results

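Photosystem II is the thylakoid complex that oxidises water in the light. Its chlorophyll-binding core is surrounded by many small membrane proteins, several of which are encoded in the plastid genome, where their genes are transcribed together with other genes in polycistronic units. Leaf cells carry chloroplasts with abundant photosystem II, whereas the plastids of root cells are mostly non-green. The genes described here are those of the small subunits, chosen by name (psbH, psbI, psbJ, psbK, psbL, psbM, psbN, psbT and psbZ) from the array's annotation. Of these 9 names, 6 had a probe set assigned to a single gene (psbH, psbJ, psbK, psbL, psbN and psbZ), out of 11100 single-gene probe sets and 18810 non-control probe sets in all. The genes psbI, psbM and psbT were not analysed here.

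The material was a mature plant of Aloe vera, a succulent monocot, bought at a garden centre and kept indoors at room temperature. Leaf RNA (3 arrays) and root RNA (3 arrays) were labelled at 250 ng each and hybridised to the Affymetrix ATH1 array, whose probes were designed for Arabidopsis thaliana. No group carried a treatment, and no strain or age was given. The protocols mention 1 plant, and nothing tells whether replicates are different plants or repeat extractions; p-values therefore cover the spread between these arrays alone, which may be technical. A value is the signal of Aloe RNA on the probes of an Arabidopsis gene, in log2 units and centred so that the median of the 6 RNA arrays is 0. Levels cannot be compared between genes, and it is unknown which probe sets exceeded background. A genomic DNA array (1) entered no comparison. The labelling kit primes on poly(A) tails, which most plastid transcripts lack, so the values concern only the RNA that was labelled. In tissue RNA, fewer green cells and less RNA per cell cannot be told apart.

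Root and leaf arrays were compared to find which small subunit genes gave unequal signal in the 2 tissues. In leaf, 3 of them stood far higher: psbZ by 27.2-fold, psbH by 16.1-fold and psbK by 8.13-fold. The gene psbN leaned the same way without passing the test, and psbJ and psbL differed by less than the spread between arrays. In all, 3 of the 6 genes passed toward leaf and 0 toward root (limma, Benjamini-Hochberg adjusted p under 0.05 over all 18810 probe sets), against 0.276% of all probe sets that passed toward leaf and 0.0638% toward root. These shares stand for 52 and 12 probe sets, which became 7 to 28 and 0 to 5 with 1 array left out, the fewest without leaf replicate 3. Unadjusted p-values were under 0.05 for 4 of the 6 genes on the leaf side and 0 on the root side, against 4.88% and 4.68% of all probe sets. Leaf and root values did not overlap for 3 of the 6 genes, all with leaf above root, which held for 6.87% of all probe sets, while 8.27% had root above leaf. The median root minus leaf difference was -2.25 log2 over the 6 genes and 0.034 log2 over all probe sets.

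**Figure D1:**
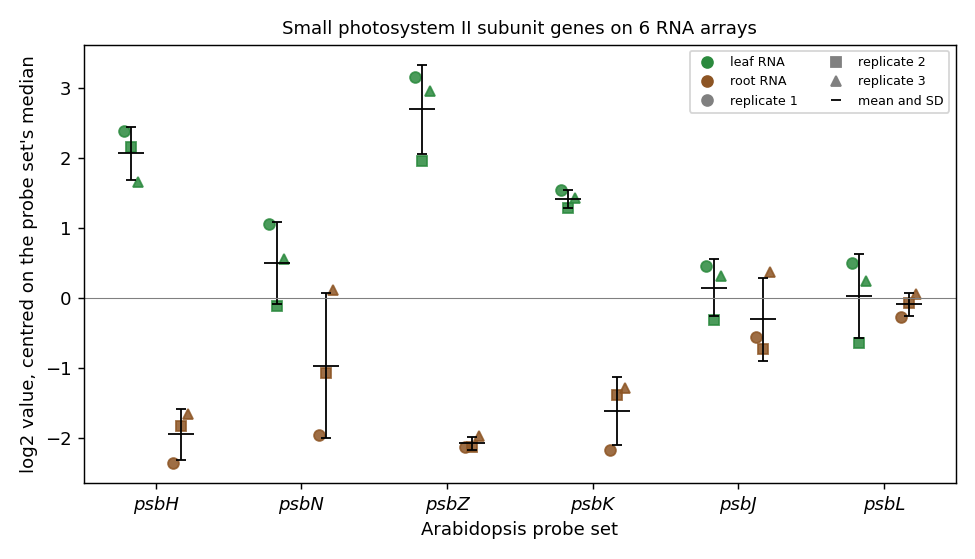
Centred log2 values of the 6 small photosystem II subunit genes on the 3 leaf (green) and 3 root (brown) RNA arrays, with one symbol per replicate number and the mean and SD as black bars. Leaf and root are separated for psbH, psbZ and psbK by gaps of 3.30, 3.93 and 2.56 log2, and overlap for psbN, psbJ and psbL.

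The gene psbZ encodes a small core subunit that helps to link the outer antenna to photosystem II. Its leaf values were 3.16, 1.96 and 2.96 log2 for replicates 1 to 3, and its root values -2.12, -2.12 and -1.96 log2. All leaf arrays were high and all root arrays low, with no overlap, and the root arrays lay within 0.162 log2 of each other while leaf replicate 2 stood below the other leaf arrays. The means were 2.69 ± 0.64 log2 in leaf and -2.07 ± 0.093 log2 in root (SD, n = 3 arrays each). The root minus leaf difference was -4.76 ± 0.32 log2 (SE, limma adjusted p = 0.00206), with a 95% interval for the fold of 16.2 to 45.5. Ordered from the largest difference toward leaf, psbZ was number 5 of the 18810 probe sets and number 4 of those with 1 gene.

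The gene psbH encodes a phosphoprotein of the core that is needed for stable assembly of the complex. Leaf replicates 1 to 3 gave 2.38, 2.16 and 1.65 log2, and root replicates gave -2.36, -1.83 and -1.65 log2. The tissues did not overlap, and the spread was alike in both, with an SD of 0.37 log2 in leaf and 0.37 log2 in root (n = 3 each). The difference was -4.01 ± 0.28 log2 (SE, limma adjusted p = 0.00229), with a 95% interval of 10.2-fold to 25.3-fold, and the gene was number 9 of all probe sets in order toward leaf.

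The gene psbK encodes a small subunit bound next to the inner antenna protein CP43. It had the narrowest leaf values of the 6 genes, at 1.54, 1.28 and 1.43 log2, an SD of 0.13 log2. Its root values were -2.16, -1.38 and -1.28 log2, so the tissues did not overlap and root replicate 1 was the lowest array. The difference was -3.02 ± 0.27 log2 (SE, n = 3 arrays per tissue, limma adjusted p = 0.0101), with a 95% interval of 5.24-fold to 12.6-fold, and number 26 in the order over all probe sets.

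The calls for psbZ and psbH held whichever array was left out, with adjusted p-values up to 0.0233 and 0.0177 in limma. That for psbK held in 5 of the 6 fits. Without leaf replicate 3 its difference was -3.02 log2 and the adjusted p = 0.0741. Over the 12 alternatives this gene's limma adjusted p lay between 0.000527, under trend and robust fitting, and 0.0741. The size of the psbK difference without leaf replicate 3 was nearly that of all 6 arrays.

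The gene psbN lies between the photosystem II genes psbT and psbH on the opposite strand. Its product was named as a subunit, but in tobacco it acts in assembly and repair of the complex. Leaf values were 1.05, -0.11 and 0.56 log2 and root values -1.95, -1.06 and 0.11 log2. Leaf was higher in each of the 3 replicate numbers, with root minus leaf at -0.95 log2 for number 2 and -0.45 log2 for number 3, but root replicate 3 exceeded leaf replicate 2, so the tissues overlapped. The difference of -1.47 ± 0.52 log2 (SE, n = 3) did not pass (limma adjusted p = 0.416), and its 95% interval ran from -2.68 to -0.26 log2 without adjustment for the number of probe sets. The SE was the largest of the 6 genes. Leaving out root replicate 1 gave -0.98 log2, and leaving out root replicate 3 gave -2.01 log2.

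The products of psbJ and psbL sit beside cytochrome b559 at the acceptor side of the complex. Leaf values of psbJ were 0.45, -0.31 and 0.31 log2 and root values -0.55, -0.72 and 0.37 log2, with root replicate 3 above 2 of the leaf arrays. Its difference was -0.45 ± 0.35 log2 (SE, n = 3, limma adjusted p = 0.769). Leaf values of psbL were 0.49, -0.65 and 0.25 log2 and root values -0.26, -0.065 and 0.065 log2, so that all 3 root arrays lay inside the range of the leaf arrays. Its difference was -0.12 ± 0.31 log2 (limma adjusted p = 0.953). The 95% intervals were -1.25 to 0.35 log2 for psbJ and -0.85 to 0.61 log2 for psbL. Neither interval reached a 4-fold difference in either direction, and neither shows that the tissues were equal.

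Within a tissue, the 6 genes ordered the arrays alike. Leaf replicate 1 was the highest leaf array for all 6 genes, and leaf replicate 2 the lowest for 5, with psbH as the exception. Root replicate 3 was the highest root array for all 6, and root replicate 1 the lowest for 5, with psbJ as the exception. Over the other 53 measured plastid-encoded genes leaf replicate 2 was also the lowest. Their median was 0.43, -0.028 and 0.48 log2 in leaf replicates 1 to 3, and their mean 0.76, 0.026 and 0.77 log2. In root the median was -0.24, -0.087 and -0.14 log2 and the mean -0.48, -0.46 and -0.20 log2. By the mean, root replicate 3 was the highest and root replicate 1 the lowest, as in most of the 6 genes. Leaf replicate 2 also had the lowest signal, -4.72 log2, on the control probe set for the large cytosolic ribosomal RNA. Every other array lay between -0.90 and 1.08 log2 there. On the control for 5S ribosomal RNA it did not stand apart, at -0.13 log2 with root replicate 2 at -0.14 log2. The part of leaf replicate 2 in these values was not tested. Without leaf replicate 2 the differences of psbZ, psbH and psbK were -5.13, -3.96 and -3.09 log2.

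**Figure D2:**
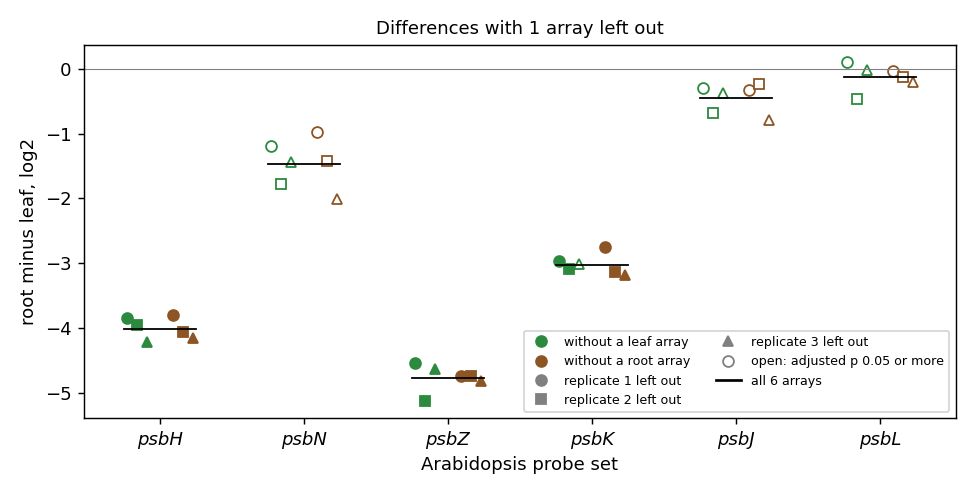
Root minus leaf difference of each gene (log2) with 1 array left out, by the tissue and replicate number of that array, with the value from all 6 arrays as a black line. Filled symbols have a limma adjusted p under 0.05: all 6 for psbH and psbZ, 5 of 6 for psbK, and 0 for psbN, psbJ and psbL.

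How far the 6 genes differed from each other was asked over 15 pairs, by the difference of 2 genes on each array compared between tissues. Exact permutation tests over the arrays, two-sided, cannot go below p = 0.1 with 3 arrays against 3, so no pair could pass. In 13 of the 15 pairs the array differences did not overlap between tissues and the exact p = 0.1, adjusted p = 0.115. For psbZ, psbH or psbK with psbJ or psbL, and for psbZ or psbH with psbN, this could not come out otherwise. There the first gene's gap between tissues was wider than the second gene's range over all 6 arrays. Those pairs are thus no further support. The pairs that overlapped were psbH with psbZ and psbJ with psbL. Root minus leaf was 0.76 ± 0.48 log2 for psbH minus psbZ (SE, exact p = 0.2). It was -0.33 ± 0.30 log2 for psbJ minus psbL (exact p = 0.3). The order psbZ, psbH, psbK, psbN, psbJ, psbL from the largest to the smallest difference thus has neighbours at its start and at its end that overlapped. For psbH minus psbK the value was -0.99 ± 0.23 log2 with no overlap.

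The places of these genes in the plastid genome of Arabidopsis group them with other genes of photosynthesis. In textbook terms, psbH belongs to a unit with psbB, psbT, petB and petD, psbZ follows psbD and psbC, psbL and psbJ follow psbE and psbF, and psbK precedes psbI. Whether the units are the same in Aloe cannot be read from these data. These groupings were made with the values known, and the accounts below describe them.

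In the psbE unit all 4 genes had small differences. The genes psbE and psbF, which encode the 2 chains of cytochrome b559, differed by -0.34 ± 0.36 and -0.23 ± 0.26 log2 (limma adjusted p = 0.843 and 0.857), on either side of which psbJ and psbL lay. The 4 comparisons of psbJ or psbL with psbE or psbF gave differences between -0.22 and 0.22 log2, with exact permutation p-values of 0.5 to 1.

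In the psbD unit all 3 genes were separated between tissues. The gene psbD, for the reaction centre protein D2, differed by -2.51 ± 0.60 log2 and did not pass (limma adjusted p = 0.193), and psbC, for CP43, differed by -3.75 ± 0.48 log2 (adjusted p = 0.0289). When arrays were dropped in turn the call of psbC held in 1 of 6 fits, that without leaf replicate 2, in which psbD was also called (adjusted p = 0.0132), and in the other fits the adjusted p of psbC reached up to 0.150. Taken array by array, the root minus leaf value was -1.01 ± 0.29 log2 for psbZ minus psbC and -2.25 ± 0.47 log2 for psbZ minus psbD. Both had no overlap of the tissues and the smallest possible exact p of 0.1, with an adjusted p = 0.2 over the 12 comparisons within units.

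By its fitted differences the psbB unit was divided. The gene psbB, for the inner antenna protein CP47, differed by -3.65 ± 0.44 log2 (limma adjusted p = 0.0236). Under the replicate block psbB was not called (adjusted p = 0.0508). When arrays were dropped in turn its call held in 2 of 6 fits, those without leaf replicate 2 and root replicate 2. Root minus leaf was -0.36 ± 0.51 log2 for psbH minus psbB (exact permutation p = 0.6). The genes petB and petD, for cytochrome b6 and subunit IV of the cytochrome b6f complex, differed by only -0.47 ± 0.29 and -0.070 ± 0.47 log2 (adjusted p = 0.699 and 0.985). Against them psbH stood apart by -3.54 ± 0.33 and -3.94 ± 0.54 log2, without overlap (exact permutation p = 0.1, adjusted p = 0.2). This lack of overlap could not come out otherwise, as the gap of 3.30 log2 for psbH was wider than the range of either gene over the 6 arrays. These 2 values therefore give sizes and are no further support. On the opposite strand psbN lay between psbB and petB in size. Root minus leaf was 2.18 ± 0.63 log2 for psbN minus psbB, without overlap (exact permutation p = 0.1). The tissues overlapped for psbN minus petB (exact p = 0.2) and did not for psbN minus petD (exact p = 0.1).

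**Figure D3:**
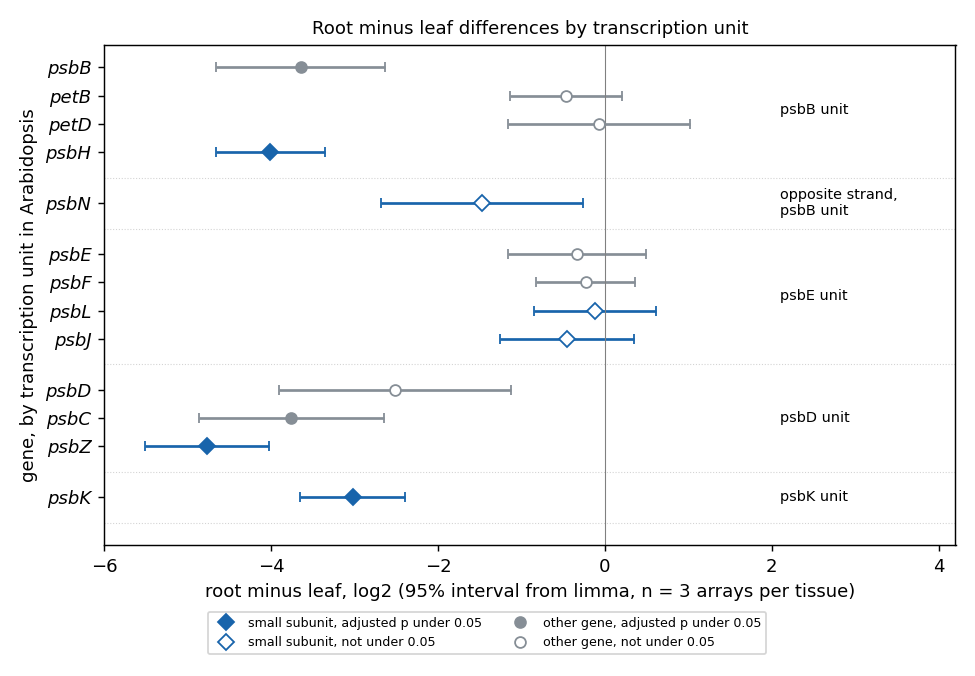
Root minus leaf difference (log2) with its 95% interval from limma for the small subunit genes (blue diamonds) and the other measured genes of their transcription units (grey circles), n = 3 arrays per tissue, filled where the adjusted p was under 0.05. The psbE unit lies between -0.45 and -0.12 log2, the psbD unit between -4.76 and -2.51 log2, and the psbB unit holds both psbH at -4.01 log2 and petD at -0.070 log2.

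Set against plastid genes of gene expression, the 3 leaf-high genes stayed separated. This could not come out otherwise, as their gaps of 2.56 to 3.93 log2 were far wider than the range of the reference. The values below therefore give sizes and are no further support. The reference was each array's median over 17 plastid genes for ribosomal proteins and RNA polymerase subunits, which itself ranged from -0.18 to 0.29 log2 and differed by -0.19 log2 between tissues (exact permutation p = 0.3). Relative to it, psbZ differed by -4.58 ± 0.28 log2, psbH by -3.82 ± 0.34 log2 and psbK by -2.84 ± 0.24 log2 (SE, n = 3). Each had no overlap between tissues and an exact two-sided p = 0.1, the smallest possible. The relative difference was -1.28 ± 0.61 log2 for psbN (exact p = 0.2), -0.27 ± 0.35 log2 for psbJ (exact p = 0.5) and 0.066 ± 0.26 log2 for psbL (exact p = 0.8). With the median of all other plastid-encoded genes as the reference, psbZ, psbH and psbK stood at -4.28, -3.53 and -2.54 log2. On that reference psbL was higher in root by 0.40 ± 0.19 log2 (exact p = 0.1), although psbL itself stood at -0.12 log2. The median over all plastid-encoded genes was 0.49, -0.028 and 0.49 log2 in leaf replicates 1 to 3. It was -0.28, -0.12 and -0.14 log2 in root, so this reference was itself lower in root. On the same reference psbJ stood at 0.060 ± 0.35 log2 (exact p = 0.9).

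**Figure D4:**
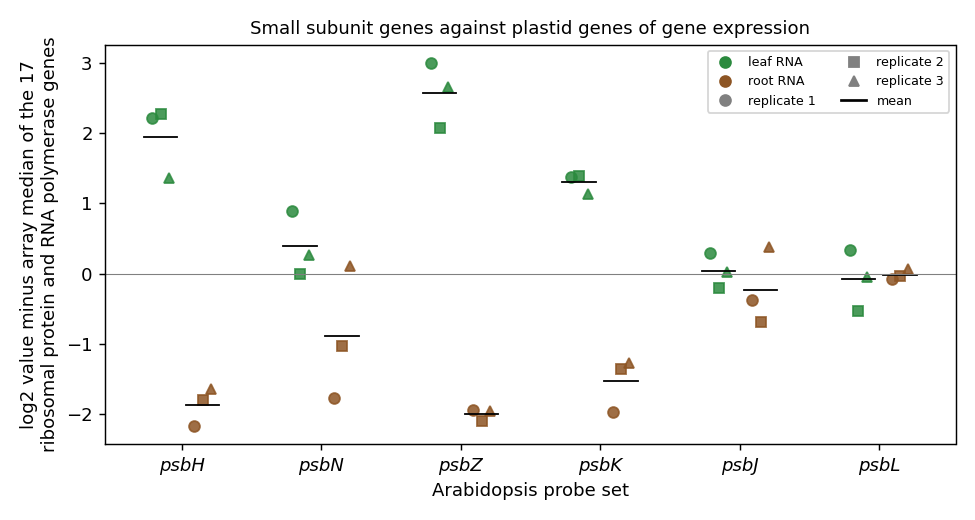
Log2 value of each small subunit gene minus the same array's median over 17 plastid genes for ribosomal proteins and RNA polymerase subunits, by tissue and replicate, with the tissue mean as a line. Leaf and root stay apart for psbH, psbZ and psbK, whose mean differences are -3.82, -4.58 and -2.84 log2, and overlap for psbN, psbJ and psbL.

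Counts for the other plastid photosystem II genes stood beside these. Of the 6 core and antenna genes, 2 were called higher in leaf (psbB and psbC) and 0 higher in root, with a median of -2.49 log2 and a range of -3.75 to -0.23 log2, against 3 of 6, a median of -2.25 log2 and a range of -4.76 to -0.12 log2 for the small subunits. The gene psbA, for the reaction centre protein D1, differed by -2.46 ± 0.69 log2 and did not pass (limma adjusted p = 0.280). Its leaf values of 2.12, 0.29 and 3.45 log2 spanned 3.16 log2, more than those of any small subunit gene. With 1 array left out, 0 to 3 of the core and antenna genes were called, and 0 without leaf replicate 1, leaf replicate 3, root replicate 1 or root replicate 3, while 2 to 3 of the small subunit genes were. Whether the 2 groups differ was not tested.

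In the rest of the plastid genome, 2 of 47 genes passed, both higher in leaf, against 0.276% of all probe sets that passed toward leaf. The mean was higher in leaf for 36 of the 47 and in root for 11, with a median difference of -0.48 log2. Unadjusted limma p-values were under 0.05 for 17 of them toward leaf and 1 toward root, against 4.88% and 4.68% of all probe sets. In the ATP synthase 1 of 6 genes passed, atpH at -2.45 ± 0.26 log2 (limma adjusted p = 0.0135), while atpB stood at -3.16 ± 0.88 log2. In the NADH dehydrogenase-like complex 1 of 8 passed, ndhA at -5.51 ± 0.73 log2 (adjusted p = 0.0327), with ndhG at -1.65 ± 0.26 log2. When arrays were dropped in turn, atpH was called in 2 of 6 fits (without root replicate 1 or 2) and ndhA in 1 (without root replicate 3). In the lists of photosystem I (4 genes), cytochrome b6f (5), RNA polymerase (4), ribosomal proteins (13) and other plastid genes (7), 0 genes passed in limma. Unadjusted p-values under 0.05 were found in these lists for 1, 3, 0, 3 and 2 genes, in that order, all on the leaf side. They were found for 4 NADH dehydrogenase-like genes on the leaf side, and for 4 ATP synthase genes on the leaf side and 1 on the root side. The latter, atpA, was named after its value was seen; it stood at 1.16 ± 0.26 log2 with no overlap and did not pass (adjusted p = 0.168). By size the leading genes were psaB at -3.30 ± 0.59 and psaA at -0.58 ± 0.32 log2, petG at -2.42 ± 0.41 and petN at -1.78 ± 0.57 log2, rpoC2 at -1.41 ± 0.63 and rpoA at 1.09 ± 0.55 log2, rps19 at -1.05 ± 0.73 and rpl16 at -0.87 ± 0.27 log2, and ycf3 at -2.01 ± 0.48 and matK at -0.86 ± 0.50 log2. The gene rbcL, for the large subunit of rubisco, stood at -0.71 ± 0.23 log2.

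Among nuclear genes of the same complex, few had a single-gene probe set under the names searched, and 0 passed in limma. The subunit genes PSB27, PSBY and PSBW stood at 0.51 ± 0.24, 0.22 ± 0.26 and -0.20 ± 0.33 log2. The minor antenna genes LHCB4.1, LHCB4.2 and LHCB4.3 stood at -0.73 ± 0.23, -0.28 ± 0.22 and -0.33 ± 0.31 log2, and the assembly genes LPA1 and LPA2 at -1.58 ± 0.49 and -0.38 ± 0.33 log2. LPA66, which acts in editing of a psb transcript, stood at 0.061 ± 0.22 log2. At an unadjusted p under 0.05, LHCB4.1 and LPA1 were higher in leaf. Few markers of the tissue labels were measured. Of the leaf mesophyll markers 2 were, both on the leaf side with an unadjusted p under 0.05: PRK at -1.25 ± 0.44 log2 and RCA at -0.70 ± 0.29 log2 (limma adjusted p = 0.408 and 0.493), and of the root markers 2, EXPA7 at 0.084 ± 0.28 log2 and EXPA18 at 0.082 ± 0.24 log2. AT1G22690, a guard cell marker, differed by 0.11 ± 0.21 log2, WSD1 of wax ester synthesis by 0.21 ± 0.18 log2, and no vascular marker was measured.

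The patterns closest to each small subunit gene were found by the root mean square difference in log2 value over the 6 RNA arrays. The search covered the single-gene probe sets outside the 6 genes. Between the 6 genes themselves, psbH lay 0.56 log2 from psbK and 0.66 log2 from psbZ, nearer than some genes found by the search. For psbK with psbZ the distance was 1.04 log2, and for psbJ with psbL 0.35 log2. The distance takes in the size of the tissue difference, which all 6 arrays share, so it is a description. Closest to psbZ were AT2G14800 at 0.48 log2 (Pearson r = 0.98) and its unit neighbour psbC at 0.60 log2 (r = 0.98). Closest to psbH were AT4G25330 at 0.44 log2 (r = 0.98) and its unit neighbour psbB at 0.57 log2 (r = 0.96). Closest to psbK was AT5G41970 at 0.38 log2 (r = 0.97), followed by AT1G80950 at 0.45 log2. Of the 5 nearest genes, 2 were plastid-encoded for psbZ and 1 each for psbH, psbK and psbN. That of psbN was atpF at 0.43 log2. That of psbK was psbB at 0.51 log2 (r = 0.98), which belongs to another unit and lay nearer to psbK than to psbH. The second for psbZ was also psbB, at 0.85 log2, so near patterns were not limited to unit neighbours. For psbJ and psbL 0 of 5 were plastid-encoded. The nearest to psbN was AT1G21065 at 0.28 log2, to psbJ AT5G05570 at 0.080 log2 and to psbL AT2G41620 at 0.11 log2.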

How the data were processed

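The authors deposited log2 values from RMA, per the submitters' processing notes, a method of background correction, quantile normalization and probe summary. Its version is not given in the sources used here, and the base of the logarithm is taken from what RMA normally writes. The values show that each probe set was centred on its median over the 6 RNA arrays (within 1e-06 of 0). With no overlap, the lowest leaf and highest root value are then equal in size by construction. For the genomic DNA array 0 values are listed, and it was not used. No counts or signal levels are given, so no filter on dim probe sets was possible, and the number of arrays limits the precision (median SE 0.26 log2).

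Control probe sets (64) were left out. Root minus leaf was fitted over 18810 probe sets by lmFit and eBayes of limma 3.58.1 in R 4.3.3, with 4 residual and 3.8 prior degrees of freedom, no covariate, and Benjamini-Hochberg adjustment at 0.05. Of these probe sets 11100 carry 1 gene in the platform annotation, 350 several and 7360 none listed. Single values were compared by exact permutation over arrays (SciPy 1.17.1, Python 3.11.15, pandas 2.3.3, NumPy 2.4.6). The members and lists were chosen with earlier results of these data known. Named genes are the members, the plastid psb genes, the 2 genes with the largest difference in each other list, and from the 5 nearest patterns per member; petB, petD, rbcL and atpA were added after their values were seen. Fits with 6 other settings and 6 with an array left out were compared.

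Leaf and root arrays share replicate numbers, whose meaning the labels do not state. Deviations from the tissue means correlated by 0.12, 0.37 and 0.25 between same-numbered arrays and by -0.29 to 0.064 between others, so same-numbered arrays were treated as pairs in an alternative fit. The main fit was also run on simulated arrays with independent normal noise at each probe set's own SD. Each simulation changed 200 probe sets, while the data gave 52 calls toward leaf and 12 toward root. Of 2-fold, 4-fold, 8-fold and 16-fold changes, 15%, 69%, 90.2% and 95.6% were called. These rates are averages over probe sets. They may be too high for psbN, whose SE of 0.52 log2 was above the median of 0.26 log2. The fitted differences of psbN, psbJ and psbL were 2.77-fold, 1.37-fold and 1.09-fold, so their lack of a call does not show equal tissues.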

Additional observations from a re-analysis of the deposited data

How the results depend on the processing

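With quantile normalization, array median centring, array weights, eBayes trend and robust fitting, probe sets without a shared-sequence suffix, or the replicate block, 3 of the 6 genes were called in each fit: psbH, psbK and psbZ. Under these settings psbZ ranged from -4.78 to -4.49 log2, psbH from -4.11 to -3.81 log2 and psbK from -3.16 to -2.84 log2. The block, trend and robust fitting and the suffix filter leave each difference as in the main fit by construction. Under them only the SE and the p-value could change. The trend was fitted on means of centred values, which carry no signal level. With the replicate block the adjusted p-values were 0.0117 for psbH, 0.0219 for psbK and 0.00483 for psbZ, and the block changed no call among the 6 genes; psbB, with which psbH was compared, was not called under it, which gave 4 of the 12 plastid photosystem II genes in place of 5. Trend and robust fitting also gave 4, as psbC was not called (adjusted p = 0.0939), and raised the calls over all probe sets from 52 to 115 toward leaf and from 12 to 40 toward root; the cause was not tested. With 1 array left out, psbZ ranged from -5.13 to -4.53 log2, psbH from -4.21 to -3.80 log2 and psbK from -3.19 to -2.75 log2. The number of small subunit genes called was 2 to 3, with psbK not called without leaf replicate 3 (-3.02 log2, adjusted p = 0.0741), and that of all plastid photosystem II genes 2 to 6: 3 without leaf replicate 1, 2 without leaf replicate 3, 3 without root replicate 1 and 3 without root replicate 3, each on fewer samples. The difference of psbL, not called in any fit, ranged from -0.46 to 0.11 log2 with 1 array left out and was above 0 without leaf replicate 1; the settings for psbJ, psbL and psbN were added after seeing the data. Relative to the plastid genes of gene expression, leaving out an array gave -4.83 to -4.37 log2 for psbZ, -4.12 to -3.66 log2 for psbH and -2.96 to -2.62 log2 for psbK. Without signal levels, the depth of a weak probe set cannot be judged.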
